A study of Mus musculus with 6 samples.

Results

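The Uhrf1 locus was described as the 60 kb of mouse chromosome 17 that hold Uhrf1 and its neighbours, cytosine by cytosine. A cytosine was a member when at least 6 reads covered it in all 6 libraries, and 122 did so of 249 listed there in any library and of 646645 across the genome. Of these, 15 lay in the Uhrf1 promoter (the 1000 bp ahead of the annotated 5' end and the first 500 bp after it), 50 in the Uhrf1 body, 6 in the Arrdc5 promoter and 14 in the Arrdc5 body. The other members lay in Plin3 (11), at the Kdm4b promoter (15), further inside Kdm4b (9) and between genes (2). The locus was selected on measured values of these same libraries, namely the low level at the Uhrf1 start and the level at the Arrdc5 start, high in controls and lower in the knockout. The levels of both promoters in these libraries are therefore a description and were not tested.

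DNA came from the whole cerebral cortex of C57BL/6 embryos at embryonic day 16, and 5-methylcytosine was read by Ox-RRBS, reduced representation bisulfite sequencing with an oxidation step. In this assay the enzyme MspI cuts DNA at CCGG, the oxidation removes 5-hydroxymethylcytosine from the signal, and a cytosine still read as C counts as methylated. The 3 control libraries were labelled Uhrf1 +/- and the 3 conditional knockout libraries (cKO) Uhrf1 -/-. By the study's methods both groups carried Emx1-Cre, which deletes the floxed exon 4 of Uhrf1 in the dorsal telencephalon, so the controls had 1 deleted allele, and whole cortex also holds cells outside the Emx1 lineage. The labels name no litters, so p-values cover the spread among these 6 libraries and no more. Exon 4 (chr17:56310676-56310836) held 6 CpG and 0 listed cytosines, so the genotypes could not be checked from these reads. The library labelled control replicate 1 stood apart, with a mean level over the genome of 15.6%, whereas control replicate 2 had 39.4%, control replicate 3 had 38.9% and the cKO libraries 15.8% to 19.6%. Differences between the groups below are therefore given with and without it, and some levels and retained shares only without it. It was set apart by its methylation level, the quantity that was tested. The p-values without it depend on that choice and rest on control replicates 2 and 3 alone. A read was counted once at each cytosine it covered, so sums over cytosines exceed the number of separate reads. Summed in this way, the libraries held 18238737 to 31019082 reads on listed cytosines, of which 2124 to 3913 fell in the locus.

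Uhrf1 binds hemimethylated CpG sites behind the replication fork and brings the methyltransferase Dnmt1 to them, so that the methylation pattern is copied to the new strand. CpG islands at the starts of widely used genes are usually free of methylation, whereas gene bodies, CpG-poor starts and intergenic DNA are usually methylated. Arrdc5 codes for a protein with an arrestin domain. The genes lie head to head. Arrdc5 (chr17:56294111-56300286) is transcribed from the minus strand and Uhrf1 (chr17:56303321-56323486) from the plus strand, and their 5' ends are 3035 bp apart in GRCm38 (GENCODE M21). The following stretches of the GRCm38 plus strand are shown because they carry the contrast: the DNA upstream of the Arrdc5 start (chr17:56300287-56300566), the short stretch where the methylation level changed (chr17:56302513-56302589), and the part of the Uhrf1 CpG island just ahead of the alternative Uhrf1 starts (chr17:56304063-56304312). Capitals mark CpG sites.
Arrdc5 upstream: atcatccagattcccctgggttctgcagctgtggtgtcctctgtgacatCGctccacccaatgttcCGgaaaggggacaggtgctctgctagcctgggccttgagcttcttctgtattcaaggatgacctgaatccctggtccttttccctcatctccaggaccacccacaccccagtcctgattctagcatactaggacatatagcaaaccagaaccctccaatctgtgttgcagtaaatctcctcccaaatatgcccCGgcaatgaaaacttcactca
Border: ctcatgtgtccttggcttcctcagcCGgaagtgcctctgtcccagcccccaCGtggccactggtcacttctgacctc
Uhrf1 island: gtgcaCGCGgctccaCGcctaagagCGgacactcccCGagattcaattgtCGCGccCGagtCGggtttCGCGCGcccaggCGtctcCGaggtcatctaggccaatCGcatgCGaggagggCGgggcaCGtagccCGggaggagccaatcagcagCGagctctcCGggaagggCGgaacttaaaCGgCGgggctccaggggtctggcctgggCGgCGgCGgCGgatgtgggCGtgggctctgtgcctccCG
The Arrdc5 stretch held 3 CpG in 280 bp, and all 3 were measured in every library. The Uhrf1 stretch held 30 CpG in 250 bp and 21 member cytosines. The border stretch held 2 CpG in 77 bp, and both were measured.

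The letters around the starts differed in the same direction over the windows that RefSeq (GRCm38.p6) gives as promoters, from 250 bases before to 50 after a start. The Arrdc5 window held 4 CpG, more than 31.4% of 32851 mouse promoters of that length, whose median was 7. The window of the first Uhrf1 start held 12 CpG and that of the alternative start 33, more than 60.4% and 91.4% of promoters. The CCAAT box, searched on both strands, occurred 3 times at Arrdc5, 3 times at the first and 2 times at the alternative Uhrf1 start, and 37.4% of all such promoters held it. GGGCGG, the core of the GC box, occurred 1 time each at Arrdc5 and the first Uhrf1 start and 3 times at the alternative Uhrf1 start, and 35.7% of promoters held it. TATAAA was found in none of these windows and in 13.6% of promoters. A match is a run of letters and was not shown to be a bound site.

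The covered cytosines were unevenly spread. They sampled 116 of the 979 CpG of the locus (11.8%), and 6 CpG were read on both strands. Of the 122 members, 33.6% lay in CCGG and 60.7% in a CpG island computed from the sequence (at least 200 bp, GC content at least 50%, observed over expected CpG at least 0.6). No member lay in the 13803 bp between chr17:56304354 and chr17:56318157, which hold 212 CpG and exons 2 to 12 of Uhrf1. In control replicates 2 and 3, 72 members averaged below 10%, 12 between 10% and 50%, and 38 at 50% or more. At 32 members no methylated read was seen in any of the 6 libraries.

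**Figure D1:**
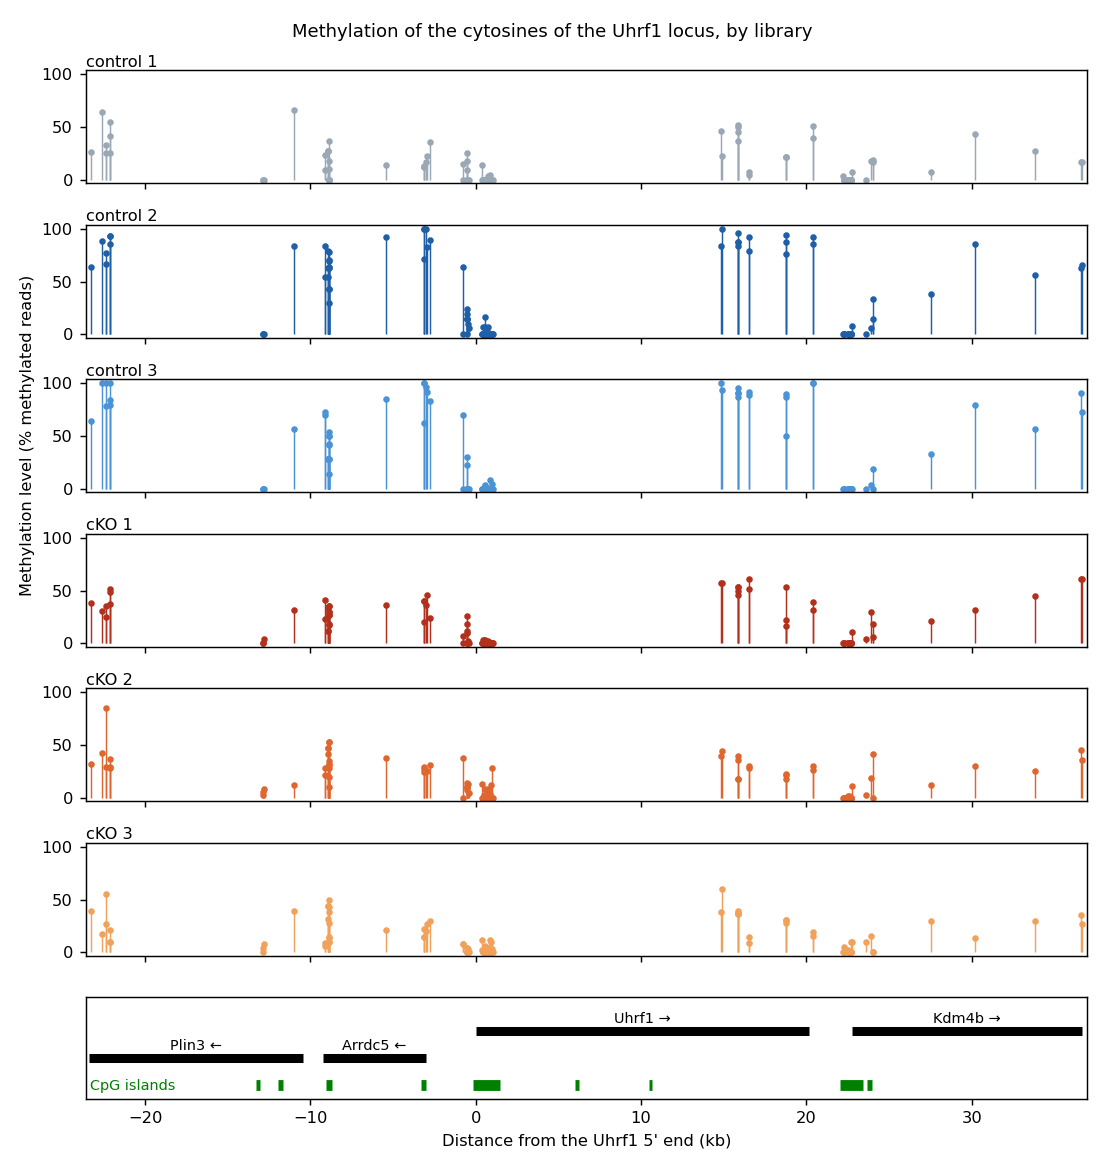
Methylation level (percent of reads methylated) of the 122 member cytosines against distance from the Uhrf1 5' end in kb, 1 panel per library, with genes (arrows give the direction of transcription; Plin3 and Kdm4b run past the edges) and CpG islands below. The starts of Uhrf1 and Kdm4b lie mostly near 0 in every panel, while the members around them are tall in control 2 and control 3 and lower in control 1 and the 3 cKO libraries.

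The Arrdc5 start was almost fully methylated in control replicates 2 and 3 and far less methylated in the cKO. Over the 6 cytosines of the Arrdc5 promoter (chr17:56300186-56300547), the level was 21.6% in control replicate 1, 90.2% in control replicate 2 and 88.7% in control replicate 3. In the cKO it was 34.8%, 27.5% and 24.4%. All 3 cKO libraries lay below control replicates 2 and 3 and above control replicate 1, so the groups overlapped through that library alone. The control mean was 66.8% ± 39.2 (SD, n = 3) and the cKO mean 28.9% ± 5.36 (SD, n = 3). Without control replicate 1 the control mean was 89.5% ± 1.04 (SD, n = 2), and the cKO retained 32.3% of it. Each value rests on 142 to 302 reads summed over the 6 cytosines. These are averages over the cells of the tissue, in which fewer methylated cells and fewer methylated alleles per cell cannot be told apart.

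The promoter's cytosines read similar levels on both sides of the 5' end. Of the 6, 3 lay in the first exon, inside a CpG island of 286 bp and 14 CpG (chr17:56300010-56300295). They read 12.2%, 90.2% and 87.5% in the controls and 33.3%, 27.1% and 17.2% in the cKO. The other 3, in the upstream stretch printed above, read 25.7%, 90.2% and 89.4% in the controls and 35.2%, 27.7% and 26.7% in the cKO. A sequence that meets the island criteria was thus methylated here in control replicates 2 and 3. The cytosine nearest to the 5' end on the upstream side (chr17:56300337) read 16.7%, 100% and 96.3% in controls and 36.5%, 25.9% and 20.4% in the cKO.

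Among the 11787 protein-coding promoters with at least 3 members, 825 averaged 25% or more in control replicates 2 and 3. The cKO retained a median of 41.9% of that level over these promoters (interquartile range 35.2% to 52.3%), and 13.9% of them retained a smaller share than Arrdc5. The promoters most like Arrdc5 over the 6 libraries, by root mean square difference of level, were Rinl (2.11 percentage points), Mst1 (3.0), Ldlrad2 (4.10), Gm28038 (4.27) and Igflr1 (4.28). Rinl, related to Rab exchange factors, read 21.9% in control replicate 1, 87.1% on average in control replicates 2 and 3 and 26.9% in the cKO. Mst1, the gene of macrophage-stimulating protein, read 18.5%, 85.6% and 29.6% in the same order. The pattern at Arrdc5 was therefore shared by other methylated promoters on other chromosomes.

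The Uhrf1 start was close to unmethylated in all 6 libraries. Over the 15 cytosines of the Uhrf1 promoter (chr17:56302538-56303763) the controls read 4.65%, 9.30% and 7.49%, and the cKO read 4.87%, 8.56% and 2.38%. The groups overlapped, with means of 7.15% ± 2.34 (SD, n = 3) and 5.27% ± 3.11 (SD, n = 3). The control mean without control replicate 1 was 8.39% ± 1.28 (SD, n = 2). No member lay between a point 412 bp ahead of the first Uhrf1 start and one 405 bp past it, so the start itself was not read in all libraries.

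The 10 cytosines upstream of the CpG island read 7.08%, 14.2% and 12.6% in the controls and 7.30%, 11.3% and 2.08% in the cKO. The 5 inside the island read 2.76%, 1.5% and 0% in the controls and 0.637%, 2.61% and 2.76% in the cKO. In control replicate 3, 12 to 16 reads covered each of these cytosines of the island, and none was methylated. That island is 1580 bp long with 118 CpG (chr17:56303186-56304765) and reaches past the alternative starts. Its 44 members read 0.731%, 1.03% and 0.465% in the controls and 0.344%, 1.59% and 1.19% in the cKO, on 860 to 1600 summed reads per library. Reads of the mitochondrial genome, which is commonly used as an unmethylated control, were read as C at 0.922% to 1.14% in the controls and cKO replicate 1, and at 3.67% and 3.35% in cKO replicates 2 and 3, the libraries with the highest island levels. The part of incomplete conversion in these low levels was not tested.

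The promoters most like Uhrf1 were those of Map6 (root mean square difference 1.17 percentage points), Zfp335 (1.22), Dimt1 (1.24), Stx1a (1.27) and Gpr12 (1.51), all of which averaged 6.80% to 8.02% in control replicates 2 and 3. Map6 codes for a microtubule-associated protein and Stx1a for a syntaxin of the synapse. Low promoter levels were the rule, since 10381 of the 11787 promoters averaged below 10% in these 2 libraries.

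**Figure D2:**
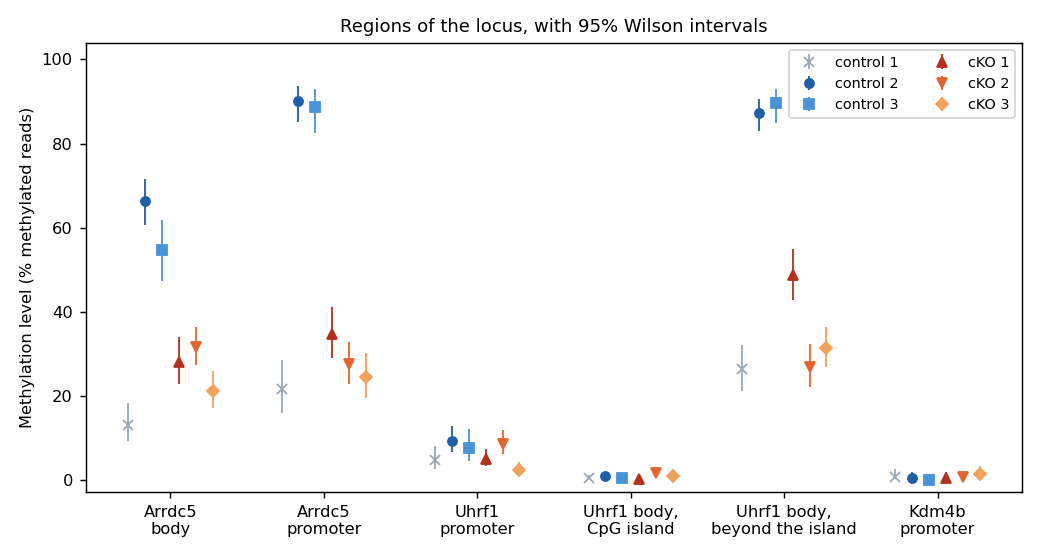
Methylation level (percent of reads methylated) of 6 regions of the locus, 1 point per library, with 95% Wilson intervals that cover counting error only. The intervals count a read once per cytosine, so they can be too narrow. Control 2 and control 3 stand at 54.7% to 90.2% over the Arrdc5 body, the Arrdc5 promoter and the Uhrf1 body beyond the island, above the 3 cKO libraries and control 1, while all 6 libraries stay below 10% at the Uhrf1 promoter, the island part of the Uhrf1 body and the Kdm4b promoter.

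In control replicates 2 and 3 the level changed from high to low between the Arrdc5 start and the Uhrf1 start, at a pair of CpG 26 bp apart. For each library a step of 2 levels was placed where it gave the highest binomial likelihood over 21 members, from 500 bp inside Arrdc5 to 500 bp inside Uhrf1. In control replicates 2 and 3, in cKO replicate 2 and with all reads pooled, the step lay between the pair of CpG in the border stretch printed above, chr17:56302538 and chr17:56302564, 783 and 757 bp upstream of the Uhrf1 5' end. The levels on the Arrdc5 side and the Uhrf1 side of the step were 88.8% and 7.51% in control replicate 2, 87.5% and 3.95% in control replicate 3, and 28.0% and 7.23% in cKO replicate 2.

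The outer CpG of that pair (chr17:56302538) was methylated in 7 of 11 reads in control replicate 2 and 7 of 10 in control replicate 3, and in 2 of 13 in control replicate 1. In the cKO it was methylated in 1 of 15, 6 of 16 and 1 of 12 reads. The 95% Wilson interval was 35.4% to 84.8% in control replicate 2 and 39.7% to 89.2% in control replicate 3, so the level is known only roughly. The place of the step in these controls rests on the 10 or 11 reads at this CpG, and not all libraries placed it here. The inner CpG, 26 bp closer to Uhrf1, had 0 methylated reads in 5 libraries and 1 of 12 in cKO replicate 3. A count of 0 in 10 to 18 reads allows a level of up to 16.7% to 30% (3 reads of the total). Both CpG were read on the plus strand with nearly the same number of reads in each library.

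Past the inner CpG the level did not fall to 0 at once. The next member (chr17:56302771) read 18.2%, 15% and 0% in the controls and 25.9%, 10.3% and 3.85% in the cKO. A neighbour 4 bp further (chr17:56302775) read 0%, 23.8% and 30% in the controls and 18.5%, 13.8% and 0% in the cKO. These intermediate levels rest on 10 to 29 reads a library and did not separate the groups. On the Arrdc5 side the nearest member lay 1991 bp away at chr17:56300547, with 35.7%, 89.2% and 82.9% in the controls and 24.2%, 30.9% and 30.2% in the cKO. The border is therefore the place of the step among the cytosines read, and methylation in that gap was not measured in all libraries.

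The other libraries placed the step elsewhere. In cKO replicate 1 it lay 546 to 535 bp upstream of Uhrf1, and in cKO replicate 3 anywhere in the 1991 bp gap, which ends at the outer CpG. In control replicate 1 it lay inside Uhrf1, 405 to 410 bp downstream of the 5' end, where a level of 15.5% gave way to 0%. The contrast between the sides was small in control replicate 1 and in every cKO library, including cKO replicate 2, which placed the step at the pair. The levels were 27.9% and 1.57% in cKO replicate 1, 28.0% and 7.23% in cKO replicate 2, and 24.4% and 2.38% in cKO replicate 3. The mean of the 6 midpoints was 704 ± 697 bp upstream of the Uhrf1 5' end (SD, n = 6). No shift of the border between the groups could be read against that spread.

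**Figure D3:**
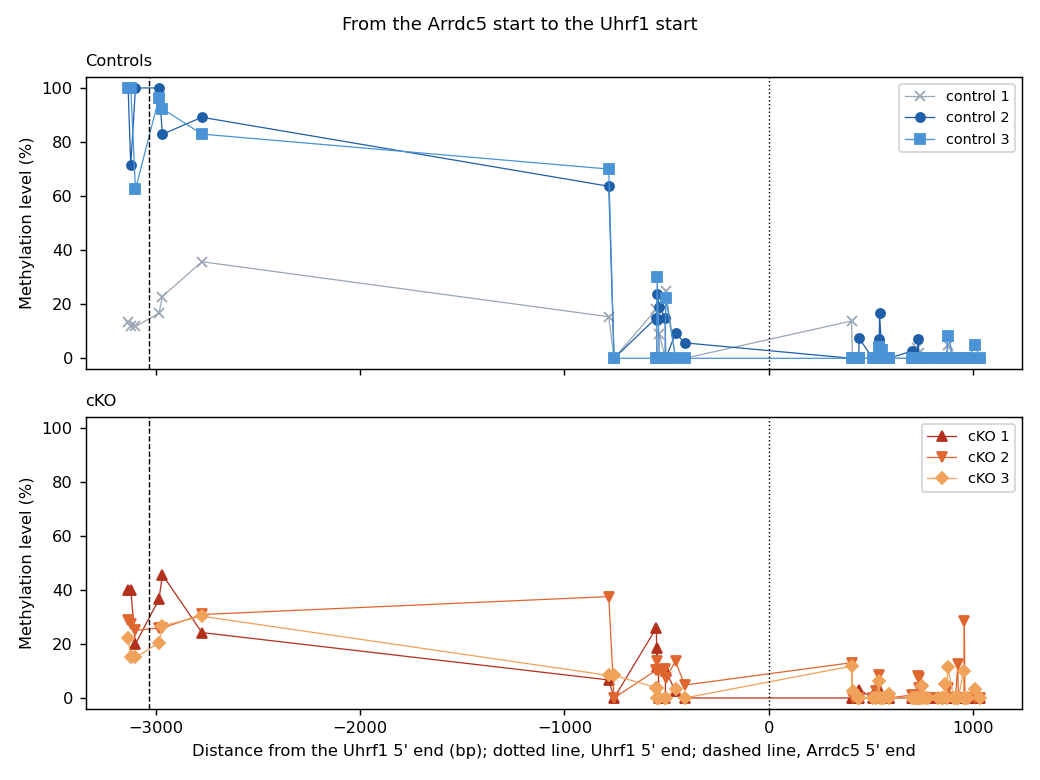
Methylation level (percent) of the members from the Arrdc5 start to just past the Uhrf1 start against distance from the Uhrf1 5' end in bp, with controls above and cKO below; lines only join the members of a library and cross the gap without data. Control 2 and control 3 drop from 63.6% and 70% to 0% between the pair of CpG 783 and 757 bp upstream, and the cKO libraries start from 24.2% to 30.9% at the last member before the gap.

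In the bodies, which were tested, no difference passed with all 6 libraries. The Arrdc5 body (14 cytosines, chr17:56294183-56297907) read 13%, 66.3% and 54.7% in the controls and 28.0%, 31.6% and 21.2% in the cKO. The difference between cKO and controls was -17.7 percentage points (44.7% ± 28.0 against 26.9% ± 5.33, SD, n = 3 each), with an adjusted p of 0.332 in the moderated quasi-binomial test over all 13028 gene bodies and an exact permutation p of 0.4, two-sided, where the smallest possible is 0.1. Of these bodies 0% were called with all 6 libraries, at an adjusted p below 0.01 and a difference of at least 25 points, and 2881 had an unadjusted p below 0.05. Without control replicate 1 the Arrdc5 body fell by 33.5 points, from 60.5% ± 8.25 (SD, n = 2), with an adjusted p of 0.000586, and was called, as were 60.7% of all bodies. A share of 44.6% of the level of control replicates 2 and 3 remained, and the median over the 10053 bodies at 25% or more in those libraries was 41.0%.

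Within Arrdc5 the methylation was uneven. The single member in the second exon (chr17:56297907) read 14.3%, 92.6% and 85.7% in the controls and 36.1%, 37.5% and 20.9% in the cKO, much like the promoter. The 13 members of the last exon read 12.8%, 63.6% and 44.6% in the controls and 26.6%, 30.8% and 21.2% in the cKO. Control replicates 2 and 3 thus differed by more in this exon than at the promoter or in the second exon. The cytosines with the lowest means over the 6 libraries lay there, at chr17:56294441, chr17:56294448 and chr17:56294438, with 30% to 53.8% in control replicates 2 and 3, 0% in control replicate 1 and 10% to 31.3% in the cKO. Those with the highest means besides the second exon were chr17:56294412 and chr17:56294436, where control replicate 3 read 28.6% on 7 reads and the cKO 33.3% to 47.1%. Here the cKO was not below control replicate 3.

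The Uhrf1 body held an unmethylated and a methylated part. As a whole (50 cytosines, chr17:56303830-56322116) it read 5.63%, 25.9% and 20.2% in the controls and 10.2%, 5.82% and 7.13% in the cKO. The difference was -9.52 points (17.2% against 7.72%), with an adjusted p of 0.216 and an exact permutation p of 0.4. Without control replicate 1 it was -15.3 points with an adjusted p of 0.00013, below the 25 points a call required. The body, counted from 500 bp downstream of the first start onwards, includes the island around the alternative starts, and it was split after the values were seen.

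The island part of the body (39 cytosines) read 0.421%, 0.949% and 0.510% in the controls and 0.298%, 1.5% and 0.987% in the cKO, with an exact permutation p of 0.6 over the 3 libraries of each group. It holds the stretch of 30 CpG printed above. The 11 cytosines beyond the island (chr17:56318157-56322116), in introns and exon 16, read 26.3%, 87.3% and 89.6% in the controls and 48.8%, 26.8% and 31.3% in the cKO. The difference there was -32.1 points (67.7% ± 36.0 against 35.7% ± 11.6, SD, n = 3 each), with an adjusted p of 0.226. Without control replicate 1 it was -52.8 points, from 88.5% ± 1.63 (SD, n = 2), with an adjusted p of 4.5e-05, and 40.3% of the level remained. The far part of Uhrf1 thus retained a share close to the median of 41.0% over methylated bodies, and the island part was below 1% in every control.

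The most methylated members of the Uhrf1 body were chr17:56319211, chr17:56318157 and chr17:56318194. The first read 52.4%, 87.5% and 91.3% in the controls and 53.8%, 39.3% and 37.1% in the cKO. The last read 23.1%, 100% and 93.3% in the controls and 57.1%, 44.4% and 60% in the cKO. At these 3 members the cKO libraries read 37.1% to 60%. The members were picked by their mean over all 6 libraries, cKO included, so high cKO levels there follow in part from that choice. The 3 with the lowest means (chr17:56303830, chr17:56303886 and chr17:56303910) had no methylated read in any library.

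Read in windows of 100 bp, the locus outside the Uhrf1 and Arrdc5 promoters held 34 windows, of which 0 were called with all 6 libraries in the moderated quasi-binomial test, as were 0% of 285466 over the genome. An unadjusted p below 0.05 was reached by 7 of the 34, and by 43457 of the 285466 over the genome. Without control replicate 1, 14 were called lower and 0 higher, against 43.8% called lower over the genome. The 14 comprised 6 of 11 windows of the Uhrf1 body, 2 of 4 of the Arrdc5 body, 4 of 8 of Plin3, 1 of 7 inside Kdm4b and the intergenic window. A window could only fall where it was methylated, and 21 of the 34 averaged 25% or more in control replicates 2 and 3, among them 6 of the Uhrf1 body and 4 of the Arrdc5 body.

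The 6 called Uhrf1 windows lay between chr17:56318101 and chr17:56322200. Their levels were 77.4% to 94.2% on average in control replicates 2 and 3 and 22.8% to 49.3% in the cKO, with differences of -55.8 to -44.8 points. The window at chr17:56319801-56319900 varied most within the groups. It read 5.88%, 85.9% and 90.3% in the controls and 56.0%, 29.3% and 11.6% in the cKO. In Arrdc5, without control replicate 1, the window at chr17:56294101-56294200 fell by 49.1 points and the one at chr17:56297901-56298000 fell by 57.6 points. With all 6 libraries their differences were -31.2 and -32.7 points. The intergenic window at chr17:56323701-56323800, between the end of Uhrf1 and the start of Kdm4b, read 45.5%, 88.9% and 100% in the controls and 35.7%, 28.0% and 17.2% in the cKO. Its groups did not overlap even with control replicate 1 included, with an exact permutation p of 0.1, the smallest that 3 against 3 libraries allow, and an adjusted p of 0.322 among all windows. This was not particular to it. Windows in Plin3 (chr17:56280701-56280800, chr17:56292301-56292400) and Kdm4b (chr17:56333501-56333600) were also lower in every cKO library than in every control. Windows with low control levels (chr17:56290501-56290600, chr17:56326001-56326100, chr17:56326901-56327000) were higher in every cKO library.

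Single cytosines gave the same picture. Of the 38 members at 50% or more in control replicates 2 and 3, 36 were lower in all 3 cKO libraries than in both of these controls, as were 91.6% of the 283172 such cytosines of the genome. Over all 122 members, every cKO library lay below both of these controls at 40 members, but below all 3 controls at only 8. No share over the genome was computed for these counts, so they do not set the locus apart. The cKO retained a median of 36.6% of the level of control replicates 2 and 3 over the 38, against 41.6% over the genome's cytosines. The smallest share, 24.6%, was at chr17:56300222 in the first exon of Arrdc5, and the largest, 76.8%, at chr17:56294412 in its last exon. The members inside the promoters are among the 38, and their levels were known when the locus was chosen.

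Of the neighbours, Kdm4b had an unmethylated start, and the start of Plin3 held no member. Kdm4b, a demethylase of histone H3 lysine 9, had 15 promoter members in an island of 1388 bp with 118 CpG, which read 0.702%, 0.328% and 0% in the controls and 0.338%, 0.658% and 1.33% in the cKO. Its 9 members further inside the gene read 19.0%, 45.3% and 34.6% in the controls and 33.9%, 22.6% and 17.2% in the cKO. The 11 members in Plin3, which codes for a protein of lipid droplets, read 24.4%, 56.1% and 45.0% in the controls and 28.8%, 24.7% and 17.2% in the cKO. Among these, 3 near an internal start of Plin3 (chr17:56290469-56290515) read 0% in all 3 controls and at most 8.82% in the cKO. Over the whole bodies, without control replicate 1, Plin3 fell by 35.0 points with an adjusted p of 9.4e-05 and Kdm4b by 38.4 points with an adjusted p of 2.3e-05. With all 6 libraries the differences were -22.4 points for Plin3 and -24.4 points for Kdm4b, and neither was called, at an adjusted p of 0.21 for each.

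A head-to-head pair with 1 methylated and 1 unmethylated start was uncommon but not peculiar to Arrdc5 and Uhrf1. Of 96 divergent protein-coding pairs with 5' ends at most 5000 bp apart, separate promoters and both promoters measured, 9 in control replicate 2 and 10 in control replicate 3 had 1 promoter below 10% and the other at 50% or more. Arrdc5 and Uhrf1 were among them in both libraries. In 70 and 71 pairs both promoters were below 10%. With a coverage of at least 10 reads, 4 of 73 pairs were split in control replicate 2. In control replicate 1 there were 0 such split pairs, and in the cKO there were 0, 1 and 0. Among the others, named here after their values were seen, the testis kinase gene Tssk1 read 90.6% and 92.2% in these controls beside 0.429% and 0.998% at Gm20518, and Erich4 read 82.1% and 76.7% beside 0% at Dmac2. In the cKO Tssk1 read 33.7%, 49.5% and 35.2%, and Erich4 34.2%, 35.5% and 14.9%.

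**Figure D4:**
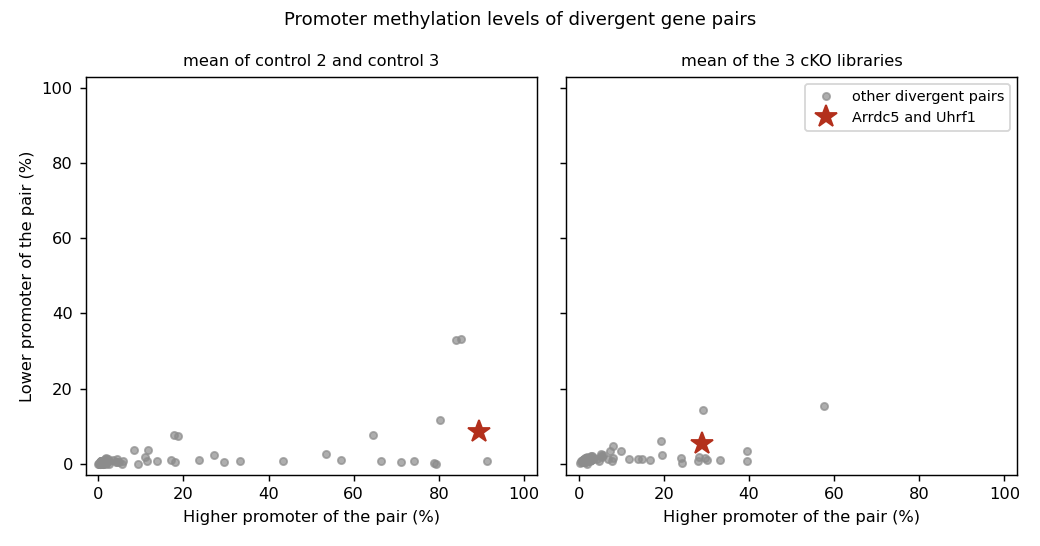
Methylation level (percent) of the more methylated promoter (x axis) and the less methylated promoter (y axis) of each of 96 divergent pairs, as the mean of control 2 and control 3 (left) and of the 3 cKO libraries (right). Arrdc5 and Uhrf1 (star) lie at 89.5% and 8.39% on the left and at 28.9% and 5.27% on the right.

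The measured promoters of genes with related functions were low in methylation in both groups, as most promoters were. Of all 11787 promoters, 10381 averaged below 10% in control replicates 2 and 3. Of 14 genes for methylation enzymes and their partners, 5 had a measured promoter, and 0 of these were called in either direction with all 6 libraries or without control replicate 1, while 0% and 0.806% of all promoters were called lower. They averaged 0% to 1.51% in control replicates 2 and 3, so none could fall by the 25 points that a call required and the count of lower calls carries no information. Uhrf2, the paralogue of Uhrf1, had a mean of 1.51% ± 1.02 (SD, n = 2) over control replicates 2 and 3, while the cKO mean was 0.963% ± 0.402 (SD, n = 3). Cdca7 and Hells, which act together in a chromatin remodelling complex needed for methylation, had control means without replicate 1 of 0.563% and 0% and cKO means of 0.985% and 1.41%. Dnmt3b, a de novo methyltransferase, had means of 0.632% in those controls and 1.02% in the cKO, and Tet2, which oxidises 5-methylcytosine, of 0.847% and 1.49%.

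Of 9 genes of the arrestin family, 6 had a measured promoter, and 0 were called in either direction in either fit, where again none was high enough to be called lower. Arrdc1 was the highest, with 8.58% ± 3.0 (SD, n = 2) as the mean of control replicates 2 and 3, and a cKO mean of 3.12% ± 0.684 (SD, n = 3). The others (Txnip, a regulator of thioredoxin and glucose uptake, Arrdc2, Arrdc4 and the beta-arrestins Arrb1 and Arrb2) averaged 0% to 1.51% in control replicates 2 and 3 and 0.329% to 2.83% in the cKO. The median difference from control replicates 2 and 3 was 0.14 points over the 6, against 0.40 points over all promoters. With all 6 libraries these medians were 0.20 and 0.44 points. None of the measured relatives had a start methylated as Arrdc5 was, and only 825 of all 11787 promoters averaged 25% or more in control replicates 2 and 3.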

How the data were processed

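Ox-RRBS libraries of cortex from embryonic day 16 (3 control, 3 cKO) were analysed from the deposited files. Per the study's methods, the authors mapped reads with Genomatix software, allowing no mismatch, to GRCm38, and the submitters' notes on processing name methylKit. Each deposited file holds 1 library and lists cytosines by strand with a count of reads (coverage) and the percent of them read as C, neither normalised nor pooled. The lowest coverage listed was 6. Methylated reads were recovered by rounding coverage times percent, which reproduced each deposited percent within 0.005 points.

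The members and gene lists were chosen with earlier results of these data known. Reads were summed over promoters, bodies (at least 3 members) and windows of 100 bp, and a level is methylated over all reads. Group differences are differences of mean levels. Bodies, windows and related promoters were tested with a binomial model and a quasi-binomial F test whose dispersion was moderated by the empirical Bayes method of limma (coded in Python 3.11.15 with scipy 1.17.1 and compared with limma 3.58.1 in R 4.3.3), with a prior estimated from features between 5% and 95% pooled methylation and a floor of 1, and Benjamini-Hochberg adjustment over all features. A call required an adjusted p below 0.01 and 25 points. On simulated bodies, with variance 1.5 times binomial at every depth, 100% of 200 falls of 40 points were recovered with 0 false calls among 13028 bodies. With a correlation of 0.01 between reads 72% were. In windows 57% and 60.5% of such falls were recovered under these 2 settings. Of falls of 25 points, counted by adjusted p alone, 98.5% and 17.5% were recovered in bodies, with 5 and 1 false calls, and 21% and 20% in windows, with 1 and 63 false calls. The prior dispersion fitted to the real data with all 6 libraries was 36.3 times binomial for bodies and 6.63 for windows. The simulated controls also shared 1 level, without a library like control replicate 1. The recovered shares therefore do not give the power of the tests on these libraries. Exact permutation tests were two-sided. Intervals are 95% Wilson intervals, and since reads carry no molecular identifiers they cover counting error only. Over a region they treat the cytosines of a read as separate draws, so they can be too narrow. The text names Uhrf1, Arrdc5, overlapping genes, the measured listed genes, the 5 most similar promoters, members around the border, the 3 highest and lowest members of each body and the called windows. Alternatives were coverage of 10 or 20, equal weights for cytosines, other promoter limits, other dispersions, autosomes alone, a replicate block and leaving out each library.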

Additional observations from a re-analysis of the deposited data

How the results depend on the processing

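Of 76 alternative values, 70 kept their direction and their side of the threshold, or, for counts, stayed within 1.5 times the reported count. Values without a test were held only to the SD between replicates, which was wide, as the ranges below show. The Uhrf1 promoter difference changed sign with a promoter reaching from 500 bp upstream to 200 bp downstream, to 1.64 points over only 2 members. Without control replicate 1 the Arrdc5 body became a call at -33.5 points, as did the Uhrf1 body with its island also left out, at -52.8 points, and 14 windows were called. A binomial test without any dispersion, in which reads stand in for replicates, also called 14 windows. At a coverage of 10, split divergent pairs in control replicate 2 went from 9 of 96 to 4 of 73. The Uhrf1 split and the coverage of 10 for pairs were chosen after seeing the data.

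Leaving out each library in turn gave differences of -60.6 to -26.3 points for the Arrdc5 promoter, -3.52 to -0.43 for the Uhrf1 promoter, -33.5 to -6.89 for the Arrdc5 body, -15.3 to -5.18 for the Uhrf1 body, and 0 to 14 called windows. The mean border lay 704 to 1106 bp upstream under its alternatives. At a coverage of 20 the Uhrf1 promoter and the Arrdc5 body had no value, with fewer than 3 members left. The labels number replicates 1 to 3 in both groups. The deviations of same-numbered libraries correlated at -0.19, 0.06 and -0.24 over windows, and those of differently numbered libraries at -0.24 to 0.29. With control replicate 1 far from the other controls, these values cannot tell whether the numbers pair the libraries. A replicate block left the differences at -9.52 and -17.7 points for the Uhrf1 and Arrdc5 bodies, uncalled, and 0 windows called in the locus.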

Other observations

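Some CpG of the locus fell outside the comparison because 1 library did not cover them, and a few of these kept high levels in the cKO. Just past the second exon of Arrdc5, in the intron, 3 cytosines (chr17:56297769-56297805) read 88.0% in control replicate 2, 90.7% in control replicate 3 and 82.1%, 84.2% and 74.1% in the cKO. These levels rest on 8 to 36 reads at each cytosine. The exonic member about 100 bp away read 20.9% to 37.5% in the cKO. Control replicate 1 did not cover the 3 intronic cytosines. In exon 13 of Uhrf1, 4 cytosines (chr17:56318296-56318341) read 90.6%, 95.1% and 89.8% in the controls and 62.1% and 82.9% in cKO replicates 2 and 3. Control replicate 1, low over most of the locus, was as high as the other controls there, on only 8 reads at each cytosine. At the nearest member, chr17:56318194, it read 23.1% on 13 reads. In a repeat within the next intron, 2 cytosines (chr17:56319085-56319094) read 100%, 91.7% and 94.4% in the controls and 95% and 100% in cKO replicates 1 and 2, on 6 to 18 reads at each cytosine. These runs were picked after their values were seen and were not tested. Other runs read by 5 libraries did not show this. In the last exon of Arrdc5, 4 cytosines (chr17:56294522-56294564) read 12.7%, 75% and 73.3% in the controls and 7.81% and 21.7% in cKO replicates 2 and 3.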
